A study of Homo sapiens with 4 samples.

Results

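Heat-only m6A sites in genes methylated in both conditions are regions listed after heat that share no base with any control region, while the same gene carries at least 1 control region elsewhere. They were chosen by the positions and gene names of the authors' peaks. There were 3709 such sites in 2191 genes, that is 24% of the 15472 peaks listed after heat. The cells were CaSki, an established human line of cervical squamous carcinoma. Heated cells had been kept at 42 °C for 60 min, and control cells were cultured at 37 °C. Each condition had 1 library immunoprecipitated for N6-methyladenosine (m6A) and 1 input library. The authors deposited 1 peak list per condition, each peak called from immunoprecipitated RNA over background, with 14367 peaks in the control list.

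m6A is written on nascent mRNA by the METTL3 and METTL14 complex, is read by YTH domain proteins, and can speed mRNA decay or alter splicing and translation. In most mRNAs it is concentrated in long internal exons and around the stop codon, with less in the 5′ part of the message. The assay used here, MeRIP-seq, reports regions and not single bases. The sites described here are regions listed in addition within genes that were already listed in control cells.

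Membership was set by the peak calls themselves, so the number and the weakness of these sites describe the choice and are not a finding. With 1 immunoprecipitated library per condition no difference between conditions can be tested, and no p-value is given. The 95% intervals are Wilson intervals and carry counting error alone. A site without a control peak can lie under the caller's threshold in control cells. It can also hold a peak that the caller numbered but the list leaves out: 170 of the 3705 sites with a listed control peak on both sides lay between consecutive control peak numbers, and the median gap held 5 unlisted numbers. A peak in either list was found for 25 of 27 markers of squamous and cervical epithelium, the labelled cell type. It was found for 3 of 18 markers of fibroblasts and endothelium and 0 of 18 immune markers. These marker lists were chosen with earlier results of these data known, so the counts are no independent check of the cell type.

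The heat-only sites were short and mostly weak. Their median length was 184 bases (lower and upper quartile 128 and 323), against 402 bases for the heat peaks of the same genes that overlapped a control peak. The authors' fold enrichment over background had a median of 25.9 for heat-only sites (quartiles 18.7 and 35.5) and of 35.1 for the overlapping peaks of these genes. The authors' significance score, a p-value on the log10 scale multiplied by minus 10, starts at 50 and for most of the strongest peaks is exactly 3100, here called the ceiling. It was under 100 for 1784 sites (48.1%, 46.5 to 49.7%), and 85 sites (2.29%, 1.86 to 2.82%) reached 1000. The caller's false discovery rate was listed as 100% for 2951 sites (79.6%). The sites covered 1186 kb in all, with single lengths of 3 to 12708 bases. Control-only sites, the control peaks in genes listed in both that overlapped no heat peak, were also mostly weak. Their median length was 228 bases, 48.9% scored under 100, and 82.0% had a listed false discovery rate of 100%.

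Within genes the contrast was less uniform. Of 1902 genes that held both heat-only and overlapping heat peaks, the heat-only sites had the higher median fold in 604 (31.8%, 29.7 to 33.9%). The ratio of the 2 medians was 0.73 in the middle gene, with 0.45 and 1.15 at the quartiles. Heat-only sites were the shorter ones in 1516 of these genes (79.7%, 77.8 to 81.5%). In 289 genes (13.2% of those with a heat-only site) no heat peak overlapped a control peak at all, so that control and heat peaks of the gene lay at different places.

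Sites just inside and just outside the rule show how sharp it is. The heat-only site closest to a control peak lay in LHX6, a LIM homeobox transcription factor gene, 21 bases from a control peak. It had 27.3-fold enrichment, and the control peak beside it 69.6-fold. Those of C5orf24 and of POLR2D, an RNA polymerase II subunit gene, lay 33 and 78 bases away with folds of 24.2 and 23.8. Just outside, a heat peak of HSP90B1, the Hsp90 of the endoplasmic reticulum, with 32.7-fold enrichment shared 5 bases with a control peak. A heat peak of ITPKC, an inositol trisphosphate kinase gene, also shared 5 bases (28.0-fold), and one of ANKRD63 shared 13 (28.2-fold). Such close calls were few: 6 of the 3709 sites lay within 100 bases of a control peak of their gene, and 67 (1.81%) within 500.

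Most heat-only sites lay far from the control peaks of their gene. The distance to the nearest one, introns included, had a median of 7042 bases (quartiles 2588 and 19692), and 1525 sites (41.1%, 39.5 to 42.7%) were more than 10000 bases away. Control-only sites also lay far from the heat peaks of their gene, with a median of 5582 bases. The farthest were in long genes: 1167880 bases in CDH13, which encodes a cadherin, 701739 in TRAPPC9, 672211 in GPHN, the gene of the synaptic scaffold gephyrin, and 513149 in THSD4. The heat-only site assigned to NBPF10, at 1080550 bases, belongs to a family of near-identical copies, so its gene is uncertain. For 298 sites (8.03%) the nearest control peak on the chromosome was assigned to another gene. The transcript named for the site also carried a control peak for 2972 sites (80.1%, 78.8 to 81.4%).

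The few sites close to a control peak often faced one that itself overlapped no listed heat peak. Among the 67 sites within 500 bases, the nearest control peak of the gene was control-only for 43 (64.2%, 52.2 to 74.6%). Over all sites this was so for 971 (26.2%, 24.8 to 27.6%), close to the 24.4% of all control peaks in these genes that overlapped no heat peak. A control peak that overlaps a heat peak allows a heat-only site so close only where the list keeps neighbouring heat peaks separate. How far this sets the 64.2% was not tested. In TPM4, a tropomyosin gene, the heat-only site (91.9-fold, 286 bases) lay 393 bases from a control-only site of 56.8-fold, both at the ceiling of the score. In DUSP6, a phosphatase of ERK, a heat-only site of 18.7-fold lay 468 bases from a control-only site of 94.4-fold. In BIRC2, an inhibitor of apoptosis, the folds were 35.7 at the heat-only and 170 at the control-only site, 239 bases apart.

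Counted over all genes, most sites lay beyond the outermost control peak of their gene, and more often on its 5′ side. Of the 3709 sites, 2403 (64.8%, 63.2 to 66.3%) lay beyond all control peaks and 1306 (35.2%) between them. A site in a gene with 1 control peak lies beyond it by definition. Such genes were 907 of the 2191 with a heat-only site, so the 64.8% is partly set by the number of control peaks. The files give no strand, so the direction of transcription was taken for 3093 sites (83.4%) from RefSeq's table for GRCh38.p14, without its coordinates. Of these, 1366 (44.2%, 42.4 to 45.9%) lay 5′ of every control peak, 633 (20.5%, 19.1 to 21.9%) 3′ of every one, and 1094 (35.4%) between. The sites on the 3′ side were longer, with a median of 288 bases against 198 on the 5′ side and 159 between control peaks.

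A 5′ excess was also present in control-only sites, placed in the same way against the heat peaks of their genes. Of 2273 such sites with a known direction, 40.5% lay 5′ of every heat peak, 26.7% 3′ of every one and 32.8% between. Of the outer sites with a known direction, 68.3% (66.3 to 70.3%) of 1999 heat-only sites and 60.3% (57.8 to 62.7%) of 1527 control-only sites lay on the 5′ side. In both, the share was lowest among sites of the highest score. Among heat-only sites with a score of 50 to under 60, 225 of 300 outer sites were on the 5′ side (75%, 69.8 to 79.6%). With a score of 1000 or more, 21 of 50 were (42%, 29.4 to 55.8%). For control-only sites the same shares were 59.8% (53.1 to 66.2%) and 34% (22.4 to 47.8%).

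**Figure D1:**
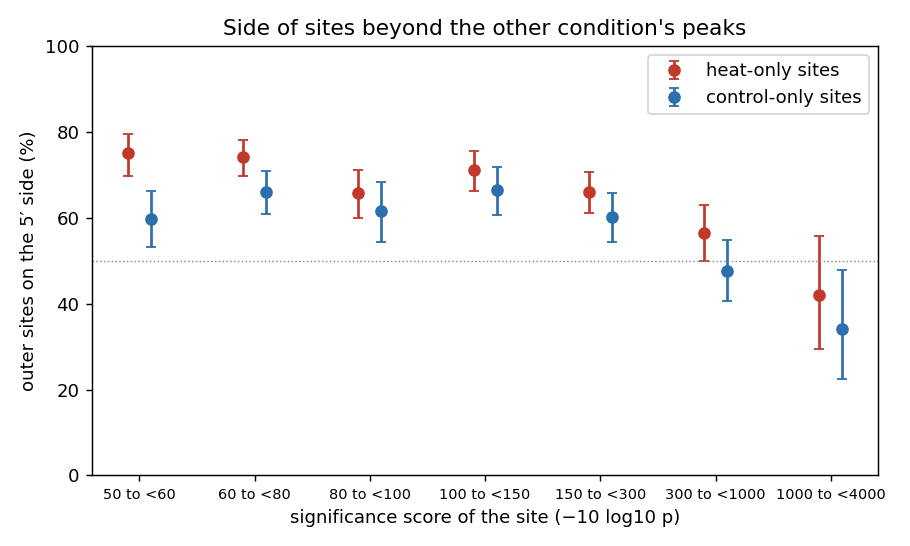
Share of outer sites, those beyond all peaks that the other condition has in the gene, on the 5′ side (y axis, percent), by the site's significance score (x axis, 7 classes); points are shares of heat-only sites (red) and control-only sites (blue), bars are 95% Wilson intervals over sites, and the dotted line marks an even split. The heat-only share is 75% in the lowest class and 42% in the highest.

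In these genes as a whole, 26.5% of the 14013 heat peaks overlapped no control peak, and 21.2% of the 13072 control peaks overlapped no heat peak (2775 control-only sites). The heat list is the longer and has the lower median fold of the lists, 31.6 against 43.3 in control, and the part of this in the difference of 5.24 percentage points was not tested. The direction turned with 1 fold limit for both lists, although how folds scale between the libraries is unknown: above a fold of 36.5 in both lists the difference was −7.93 percentage points, and with equal numbers of top peaks from each list it was 1.22 points. By chromosome, heat-only shares lay between 20.6% on chromosome 4 (67 of 325 heat peaks) and 30.6% on chromosome 22 (139 of 454), against control-only shares of 20.8% and 20.2% there. On 21 of the 23 chromosomes compared the heat-only share was the higher one, the exceptions being chromosomes 4 and 18.

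Of the 6030 genes listed in both conditions, 36.3% had at least 1 heat-only site and 34.5% at least 1 control-only site, so that about as many genes were touched in each direction. Both kinds of site occurred in 1008 genes, which is 46.0% (43.9 to 48.1%) of the genes with a heat-only site. Among genes with none, 28.0% had a control-only site. What differed was the number of sites in a gene. At least 2 heat-only sites were found in 826 genes and at least 2 control-only sites in 530, and for 4 sites the numbers were 158 and 36. No gene had more than 6 control-only sites, whereas 25 genes had at least 7 heat-only sites. The 158 genes held 810 of the 3709 sites (21.8%). With equal numbers of top peaks from each list, 111 genes had at least 4 heat-only sites and 41 at least 4 control-only sites. Above a fold of 36.5 these numbers were 34 and 48.

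Genes with 3 or more control peaks had a heat-only site more often than genes with fewer. It was 32.2% (30.5 to 34.0%) of 2813 genes with 1 control peak, 47.6% (42.7 to 52.7%) of 380 genes with 4, and 76.0% (67.7 to 82.8%) of 121 genes with 8 or more. For control-only sites by the number of heat peaks, the share was 31.1% with 1, 43.8% with 4 and 59.2% (52.1 to 65.9%) with 8 or more. Several gene groups below are therefore given with their mean number of peaks.

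**Figure D2:**
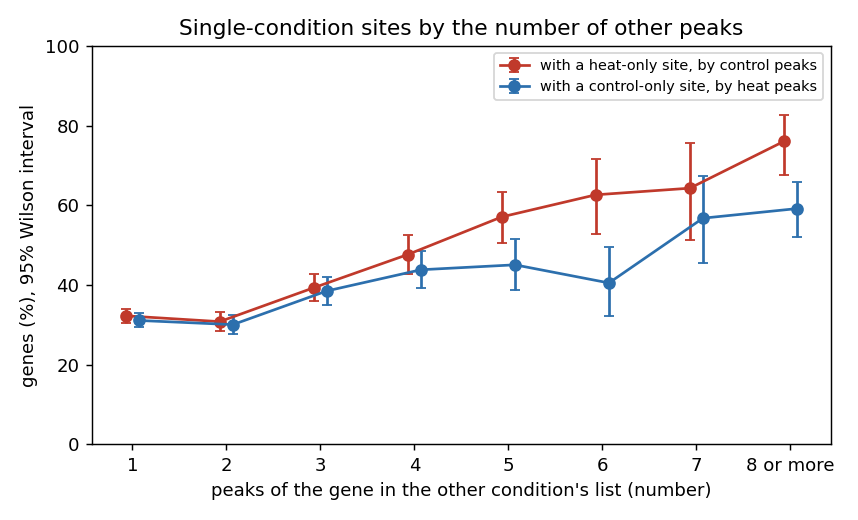
Share of genes listed in both conditions that had at least 1 heat-only site, by their number of control peaks (red), or at least 1 control-only site, by their number of heat peaks (blue); y axis in percent, bars are 95% Wilson intervals over genes. The red share is 32.2% at 1 peak and 76.0% at 8 or more peaks.

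Among the genes with the most heat-only sites were HUWE1, COL4A2, PCNT, COL17A1, COL5A1, TCF3, EGFR, CDC42BPB and SH3KBP1. Against 9 to 12 heat-only sites each, these 9 genes had 0 to 3 control-only sites. All coordinates are hg19. Folds of the lists are each relative to the background of their own library, and how they scale between libraries is unknown, so where a heat and a control fold stand together they are not compared.

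**Figure D3:**
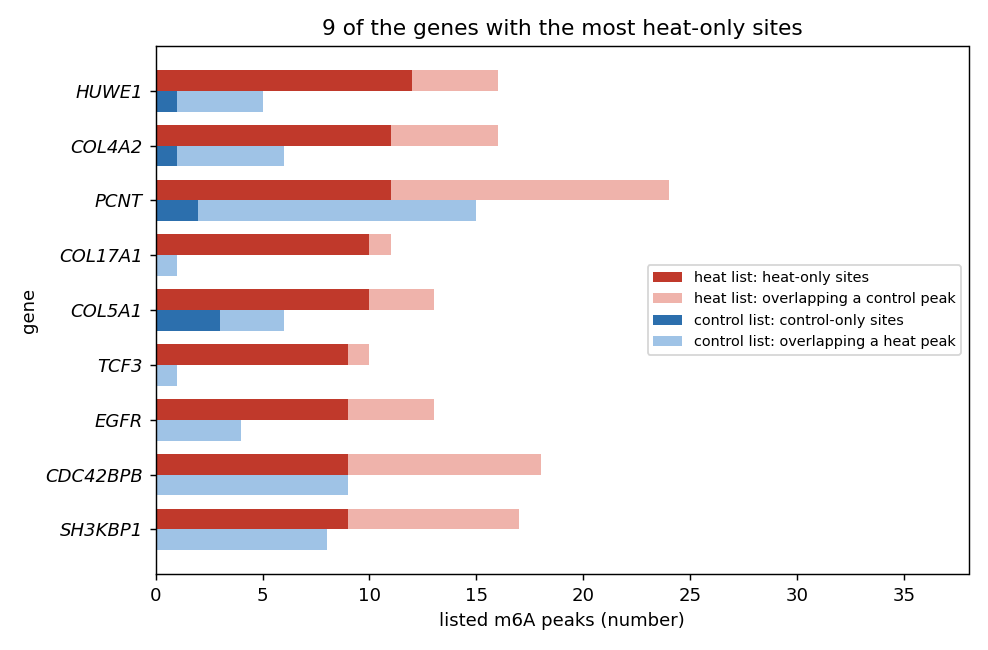
Number of listed m6A peaks (x axis) in 9 of the genes with the most heat-only sites; for each gene the upper bar is the heat list (red, heat-only sites; pale red, peaks overlapping a control peak) and the lower bar the control list (blue, control-only sites; pale blue, peaks overlapping a heat peak). HUWE1 has 12 heat-only sites and 5 control peaks in all.

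In HUWE1, a giant HECT-type ubiquitin ligase, 12 heat-only sites on chromosome X stood beside 4 heat peaks that overlapped control peaks. Of the 12, 5 lay 5′ of all control peaks, 6 between them and 1 on the 3′ side. The highest score among them, 647, belonged to a site of 169 bases at 53588717 to 53588885 (17.4-fold), and 3 of the 5 sites on the 5′ side scored under 60. For the 3′ site, at 53559768 to 53560372 (17.3-fold, score 123), the control list left no unlisted number, against 5 at the sites on the 5′ side and 1 or 3 at those between. The single control-only site of HUWE1 lay at 53565796 to 53566041 (18.2-fold, score 50.5).

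EGFR, the epidermal growth factor receptor, had 9 heat-only sites on chromosome 7 and no control-only site. All 4 of its control peaks kept the same start and end after heat, and whether such boundaries follow exon edges was not tested. Between 55086714 and 55238738, 7 of the heat-only sites of EGFR lay 5′ of every control peak, the first 153617 bases before the nearest one, in a gap where the control list leaves out 49 numbers. The other 2, at 55259412 to 55259567 (24.7-fold, score 935) and 55260459 to 55260534 (25.2-fold, score 425), lay between control peaks. The strongest peak of EGFR, at 55323947 to 55324313, had 41.7-fold enrichment in the heat list and 264-fold in the control list.

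Collagens made up 3 of these 9 genes. COL17A1, the transmembrane collagen of hemidesmosomes, had 10 heat-only sites on chromosome 10, 9 of them 5′ of its single control peak. That control peak, at 105819160 to 105819476, was weak, with 19.5-fold enrichment and a score of 100, and the heat peak overlapping it had 13.2-fold and 52.2. Of the COL17A1 heat-only sites the highest score was 351, at 105822016 to 105822087 (72 bases, 11.3-fold). Lengths of 36 to 144 bases were found for 7 of the 10. The control list leaves out 5 numbers at the 9 sites on the 5′ side of COL17A1 and 8 at the other. COL4A2, a chain of basement membrane collagen, had 11 heat-only sites on chromosome 13, with folds of 19.0 to 58.1 and lengths of 51 to 192 bases, and all 11 lay between control peaks, in gaps of 6 or 9 unlisted control numbers. Its last peak, at 111164281 to 111165373, was listed with 129-fold enrichment after heat and 16.9-fold in control. COL5A1, a fibrillar collagen gene, had 10 heat-only sites with folds of 12.6 to 65.1 and 3 control-only sites with folds of 40.1 to 49.9. At the COL5A1 heat-only sites the control list leaves out 4 to 20 numbers.

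**Figure D4:**
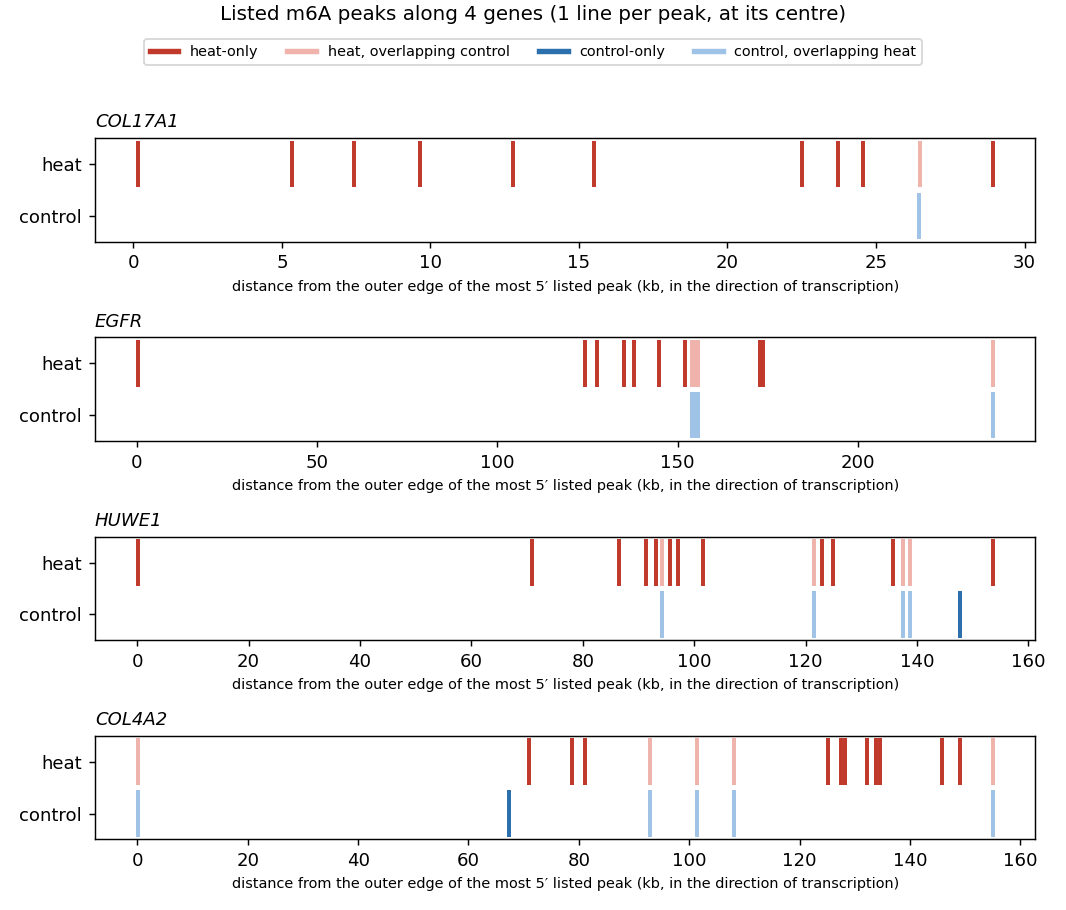
Listed peaks along COL17A1, EGFR, HUWE1 and COL4A2, 1 line per peak at its centre; the x axis is the distance in kb, in the direction of transcription, from the outer edge of the most 5′ listed peak, and each panel shows the heat list above the control list. Red lines are heat-only sites (10, 9, 12 and 11) and blue lines control-only sites (0, 0, 1 and 1); pale lines overlap a peak of the other list.

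TCF3, which encodes the helix-loop-helix transcription factor E2A, ran the other way along its gene: 8 of its 9 heat-only sites on chromosome 19 lay 3′ of its only control peak. The strongest of these, at 1609289 to 1611848, was 2560 bases long with 53.8-fold enrichment and a score of 1629. The control peak of TCF3 had 24.0-fold enrichment and kept its boundaries after heat (27.3-fold). PCNT, the gene of the centrosome scaffold pericentrin, had 11 heat-only sites beside 15 control peaks, with 7 of the sites between control peaks and 4 on the 3′ side. CDC42BPB, a kinase that acts on myosin downstream of Cdc42, had 9, of which 8 lay between control peaks. In SH3KBP1, an adaptor of receptor endocytosis, 4 of 9 sites lay on the 3′ side and the highest fold was 89.8.

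The heat-only sites with the highest significance scores were in SDC1, NFIC, SREK1, EIF3J, CIZ1, TPM4, BASP1, HCFC1, KIFC1 and KIF1C. All but the SDC1 site were at exactly 3100, so their order rests on the fold, and whether a score above 3100 outranks one of exactly 3100 is unknown. SDC1, the heparan sulfate proteoglycan syndecan-1, had the highest score, 3161, at chromosome 2, 20403574 to 20404052 (479 bases, 29.3-fold). The 2 other heat-only sites of SDC1 scored 1124 and 1254, and all 3 lay 5′ of its control peak, which kept its boundaries with 41.5-fold enrichment after heat and 84.3-fold in control. NFIC, a CCAAT-binding transcription factor of the nuclear factor I family, had the highest fold of all heat-only sites, 519, over only 86 bases at chromosome 19, 3456548 to 3456633. It lay between control peaks, 3883 bases from the nearest.

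These strongest sites included those of a translation gene, EIF3J, and a splicing gene, SREK1. EIF3J, a subunit of initiation factor eIF3, had a site of 97.2-fold over 170 bases at chromosome 15, 44829266 to 44829435, 5′ of its only control peak, which had 30.6-fold enrichment. SREK1, a splicing regulator, had a site of 219-fold at chromosome 5, 65466413 to 65466775, also 5′ of its only control peak (113-fold). For BASP1, a membrane-bound signalling protein, the site of 74.4-fold at chromosome 5, 17217670 to 17217919, lay 57397 bases 5′ of a peak listed with the same boundaries in both conditions. In 4 of the 10 genes, CIZ1 (94.9-fold), HCFC1 (63.7-fold), KIFC1 (62.6-fold) and KIF1C (60.0-fold), the control list left no unlisted number at the site. CIZ1 acts in DNA replication, HCFC1, host cell factor 1, is a transcriptional coregulator, and KIFC1 and KIF1C are kinesins. The HCFC1 site was 1477 bases long, at chromosome X, 153219517 to 153220993, against 3 control peaks elsewhere in the gene that all recurred after heat.

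Other sites stood out by fold or length. DVL1, a Wnt pathway scaffold, had a heat-only site of 257-fold, FIP1L1, a polyadenylation factor, one of 186-fold, and PTDSS2, a phosphatidylserine synthase, one of 175-fold. The longest were in MUC4, a membrane mucin (12708 bases, 40.9-fold), SRRM2, a splicing scaffold (6701 bases, 20.0-fold, score 3100), HRNR, a cornified envelope protein (5835 bases), VPS53 (5094 bases, 107-fold) and HIPK2, a nuclear kinase (4373 bases). MUC4 and HRNR contain long tandem repeats, and reads within repeats are hard to place, so these 2 are uncertain. Among the 289 genes with no heat peak over a control peak, the highest scores were in SRRM2, HDGF and TEAD4, named after their values were seen. HDGF, a growth factor, had 1 heat-only site of 1349 bases (20.3-fold, score 2188) and 1 control-only site of 409 bases (24.1-fold, score 310), 7887 bases apart. TEAD4, a transcription factor of the Hippo pathway, had 1 heat-only site of 74.7-fold and 3 control-only sites.

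Genes for the cytoskeleton held heat-only sites most often among the lists examined. In the list of actin crosslinkers, spectrins and myosins, 15 of 18 genes listed in both conditions had one (83.3%, 60.8 to 94.2%), against the 36.3% of all genes, and 14 of 18 had a control-only site, against 34.5%. These genes had a mean of 9.06 heat and 7 control peaks, beside 2.32 and 2.17 over all genes listed in both. In number of sites the list leaned towards heat, with 65 heat-only and 28 control-only sites. MYH9 and MYH14, non-muscle myosin heavy chains, had 8 heat-only sites each against 2 control-only sites each, and ACTN4, alpha-actinin 4, had 7 against 0. The MYH9 site at chromosome 22, 36694965 to 36695088, reached the score ceiling with 53.5-fold enrichment, and all 8 lay between control peaks. In ACTN4 the strongest heat-only site, at chromosome 19, 39216364 to 39216543, had 26.3-fold enrichment and a score of 1610, and 3 of the 7 sites lay 3′ of all control peaks.

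Hemidesmosome, desmosome and keratin genes had the widest difference between the shares of genes with heat-only and with control-only sites, among lists with 10 or more genes listed in both. Of the 18 listed in both, 12 had a heat-only site (66.7%, 43.7 to 83.7%), against 36.3% of all genes, and 6 a control-only site (33.3%, 16.3 to 56.3%), against 34.5%, with 37 and 12 sites. Their mean number of peaks was 4.22 after heat and 2.83 in control, beside 2.32 and 2.17 over all genes listed in both. The intervals of these shares overlap. LAMA3 and LAMB3, which encode laminin chains, had 5 and 3 heat-only sites and no control-only site. The strongest in LAMA3, at chromosome 18, 21452984 to 21453179, had 51.9-fold enrichment and a score of 204. DSP, desmoplakin, had 5 heat-only sites of 51 to 155 bases, all between control peaks, and 1 control-only site. Against this trend PPL, periplakin, had 1 heat-only and 6 control-only sites. Of the 11 genes for other matrix proteins and their receptors, 7 had a heat-only and 7 a control-only site (63.6%, 35.4 to 84.8%, in each case). Over all genes the shares were 36.3% and 34.5%, and the heat-only interval holds the 36.3%. These 11 genes had a mean of 5.45 heat and 3.73 control peaks. They held 31 and 12 sites, and 21 of the 31 were in COL4A2 and COL5A1. TNC, tenascin C, had 5 and 3, and THBS1, thrombospondin 1, had 2 heat-only sites, the stronger of 21.3-fold with a score of 1059.8.

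Chromatin modifiers also held many single-condition sites of both kinds. Of 47 genes listed in both, 34 had a heat-only site (72.3%, 58.2 to 83.1%), against 36.3% of all genes, and 28 a control-only site (59.6%, 45.3 to 72.4%), against 34.5%. Their mean was 5.94 heat and 5.30 control peaks. Heat-only sites numbered 6 in KDM3B, a histone H3 lysine 9 demethylase, 6 in SMARCA4, the BRG1 ATPase of SWI/SNF, 5 in KDM4B and 4 in KDM5B, with 1, 1, 2 and 1 control-only sites. The SMARCA4 site at chromosome 19, 11145590 to 11145808, had 24.4-fold enrichment and a score of 1135. In KDM5B, a histone H3 lysine 4 demethylase, the strongest site was 730 bases long (66.5-fold, score 923) and lay 3′ of all control peaks. SMARCC1, another SWI/SNF subunit, had 2 heat-only and 4 control-only sites. SMARCC1, LAMB3 and PPL were named after their values were seen.

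Signalling and ubiquitin genes varied. In EGF receptor signalling 13 of 29 genes had a heat-only site (44.8%, 28.4 to 62.5%), an interval that holds the 36.3% of all genes. A control-only site was found in 10 (34.5%), beside 34.5% of all genes. The list held 32 and 15 sites, and 9 of the 32 were in EGFR. MAP2K2, the kinase MEK2, the small GTPase gene RALA and EPS15, an endocytic adaptor of the receptor, had 3 heat-only sites each, all on the 5′ side. For MAP2K2 the strongest, at chromosome 19, 4117417 to 4117627, had 15.6-fold enrichment and a score of 533. Of 21 HECT-type and other large ubiquitin ligases, 11 had a heat-only site (52.4%, 32.4 to 71.7%) and 12 a control-only site (57.1%), against 36.3% and 34.5% of all genes. Their mean was 3.52 heat and 3 control peaks, beside 2.32 and 2.17 over all genes listed in both. They held 33 and 22 sites, of which HUWE1 held 12 and 1. NEDD4L had 4 heat-only sites and no control-only site, UBR4 had 4 and 1, and HERC2 3 and 2, while RNF213, named after its values were seen, had 2 and 4. All 4 UBR4 sites lay 3′ of its only control peak, which itself was control-only (34.3-fold, score 58.4).

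Heat shock genes held heat-only sites about as often as all genes. Of 28 genes for heat shock proteins, co-chaperones and related stress proteins listed in both, 11 had a heat-only site (39.3%, 23.6 to 57.6%), near the 36.3% of all genes, and 8 a control-only site (28.6%, 15.3 to 47.1%), against 34.5%. HMOX1, the inducible heme oxygenase, had heat-only sites of 35.2-fold and 55.5-fold on either side of a peak that had 22.9-fold enrichment after heat and 28.5-fold in control. HSPA4, an Hsp110-type nucleotide exchange factor of Hsp70, had sites of 28.4-fold and 42.7-fold and 1 control-only site of 20.2-fold. DNAJC5, a vesicle co-chaperone, had 2 sites 5′ of its long peak (14.0-fold and 25.9-fold). HSPBP1, another exchange factor, had 2 of 12.6-fold and 13.5-fold and 1 control-only site of 33.3-fold. Of 20 genes of the unfolded protein and integrated stress response, 6 had a heat-only site (30%, 14.5 to 51.9%) and 4 a control-only site. EIF2AK4, the eIF2 kinase GCN2, had 3 heat-only sites 5′ of its control peaks, the strongest of 120-fold over 81 bases at chromosome 15, 40246105 to 40246185. SEL1L, of the degradation complex of the endoplasmic reticulum, had 2, HSP90B1 had 1 (14.0-fold), and SESN2, a sestrin, had 2 on the 5′ side of a control-only site of 105-fold.

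Immediate early genes had few such sites. Of 34 listed in both, 5 had a heat-only site and 5 a control-only site (14.7%, 6.45 to 30.1%, in each case), against 36.3% and 34.5% of all genes, with a mean of 1.59 peaks in either list. The SRF site, 2412 bases long, had 26.4-fold enrichment, and the DUSP4 site 10.5-fold. BTG1, an antiproliferative gene, had a site of 17.4-fold and a score of 573 that lay 940 bases 5′ of its control peak. In the list of m6A enzymes and readers 3 of 16 genes had a heat-only site (18.8%, 6.59 to 43.0%) and 7 a control-only site (43.8%, 23.1 to 66.8%), and both intervals hold the share of all genes. IGF2BP2, an m6A reader that stabilises mRNA, had 3 heat-only and 4 control-only sites. The heat-only folds of IGF2BP2 were 50, 35.2 and 15.8, and the control-only site of the highest score, 1885 bases long, had 44.2-fold. WTAP, the adaptor of the writer complex, had 1 heat-only site of 43.1-fold, and EIF3A 1 of 32.6-fold.

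Zinc finger genes lay below the background for heat-only sites. Of 210 ZNF genes listed in both, 40 had a heat-only site (19.0%, 14.3 to 24.9%), against 36.3% of all genes, and 65 a control-only site (31.0%, 25.1 to 37.5%), against 34.5%. They held 56 and 79 sites and had a mean of 1.66 heat and 1.77 control peaks, beside 2.32 and 2.17 over all genes listed in both. The part of peak number in the lower share was not tested. ZNF462 and ZNF592 had 4 heat-only sites each and no control-only site, and ZNF142 and ZNF618 had 3 and 1. The highest folds in these 4 genes were in ZNF142 (96.8-fold, score 810) and ZNF618 (76.6-fold, score 218).

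In the remaining lists the numbers were small. Of 15 cell cycle genes listed in both, 9 had a heat-only site (60%, 35.7 to 80.2%), against 36.3% of all genes, and 5 a control-only site (33.3%, 15.2 to 58.3%), against 34.5%. Their mean was 2.87 heat and 2.33 control peaks, beside 2.32 and 2.17 over all genes listed in both. CDC25B, a phosphatase that activates cyclin-dependent kinases, had 3 heat-only sites, the strongest of 51.6-fold with a score of 632, and its only control peak, of 13.2-fold, was control-only. In CCNE1, cyclin E1, 2 heat-only sites of 22.4-fold and 41.5-fold flanked a control-only site of 18.7-fold. The MCM2 site had 34.7-fold enrichment and the CDK6 site 20.5-fold. In the stress granule and translation list 10 of 20 genes had a heat-only site (50%, 29.9 to 70.1%) and 11 a control-only site (55%), with 17 and 16 sites. Over all genes the shares were 36.3% and 34.5%, and the list had a mean of 3.40 heat and 3.35 control peaks. EIF5B had a site of 122-fold over 126 bases (score 1471), and G3BP2, a stress granule protein, had 2 on the 5′ side of its control peak. The 3 sites of EIF3C, of 7.03-fold to 9.34-fold, are uncertain, because a near-identical copy of this gene is known.

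Of 15 apoptosis and p53 genes 2 had a heat-only site (13.3%, 3.74 to 37.9%) and 3 a control-only site (20%), against 36.3% and 34.5% of all genes. The CASP8 site had 76.0-fold enrichment. Of 4 genes with an RPL or RPS symbol listed in both, RPS24, a ribosomal protein gene, was the 1 with a heat-only site (20.3-fold). The prefix also takes RPL7L1 and RPS19BP1, which encode no ribosomal protein. Among markers of squamous and cervical epithelium 7 of 17 genes had a heat-only site (41.2%, 21.6 to 64.0%), near the 36.3% of all genes, and 5 a control-only site (29.4%), against 34.5%. KRT8, a simple epithelial keratin, had a site at the score ceiling with 15.3-fold enrichment, TP63, the squamous lineage factor, had 3 with folds of 7.99 to 19.6, and GRHL2, an epithelial transcription factor, had 2. COL1A1 had a site of 18.5-fold with a score of 55.5, and it was 1 of 2 genes listed in both among the fibroblast and endothelial markers. Its overlapping peak was strong, with 139-fold enrichment and a score of 1095 after heat and 61.8-fold and 502 in control.

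**Figure D5:**
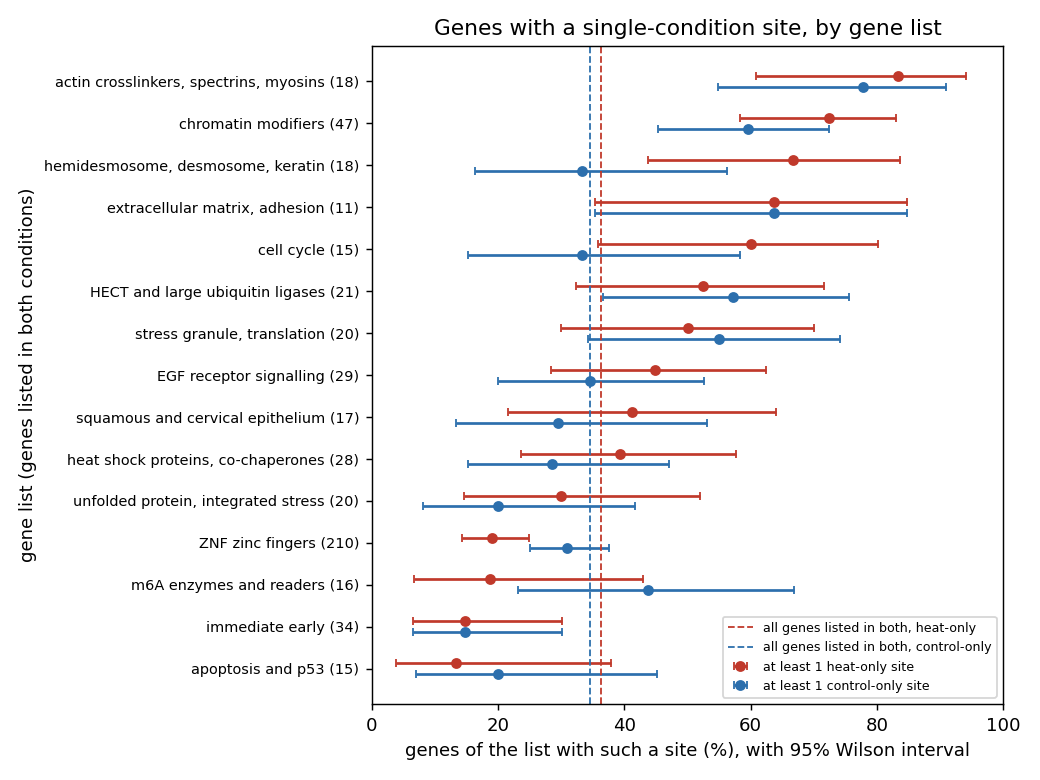
Share of genes (x axis, percent) with at least 1 heat-only site (red) or at least 1 control-only site (blue) in each gene list with 10 or more genes listed in both conditions, with that number of genes in brackets; bars are 95% Wilson intervals over genes, and dashed lines mark all genes listed in both (36.3% and 34.5%). Actin crosslinkers, spectrins and myosins lie highest, at 83.3% for heat-only sites.

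Transcript abundance was not examined here, so a change in methylation and a change in the amount of an RNA or of one of its exons cannot be told apart for any of these sites.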

How the data were processed

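m6A MeRIP-seq was done on 4 libraries of CaSki cells, 1 immunoprecipitated and 1 input library per condition. Per the submitters' processing notes, cutadapt 1.9.3 trimmed the reads and STAR mapped them to hg19. Peak names begin with MACS, and no source used here gives the caller's settings. Per the file headers, the authors gave each peak a significance score (a p-value as minus 10 times its log10), a fold (a ratio over background) and a false discovery rate in percent. They describe, rank or filter peaks within a list, and some alternatives set 1 limit on both lists, whose scaling is unknown. The lists hold 23.9% of the numbered heat peaks and 24.6% of the numbered control peaks. Depth per library is unknown.

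Peaks sharing at least 1 base were called overlapping (Python 3.11.15, pandas 2.3.3), and genes were matched by the files' symbols. Starts were made 1-based. Distances include introns. Strand came from RefSeq's table (GRCh38.p14) by gene identifier, for 1806 of the 2191 genes. Intervals are 95% Wilson intervals (scipy 1.17.1). In simulated lists all 2124 planted heat-only sites were found.

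The text names the 10 highest-scored sites, the 10 genes with the most sites, up to 4 genes in each of 18 lists, the 5 longest, highest-fold and farthest sites, and 3 sites on either side of the rule; bare identifiers were skipped. Some genes selected this way are not reported here. Members and lists were chosen with earlier results of these data known. Alternatives changed the overlap, the peak threshold and the gene assignment.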

Additional observations from a re-analysis of the deposited data

How the results depend on the processing

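With a gap of up to 100 or 500 bases, or overlap of at least 50% of the peak, in the rule, each count stayed within 1.5 times its value and each share within its interval. With transcripts in place of symbols only the numbers of heat-only sites, their genes and control-only sites were run, and these stayed within 1.5 times too. The other settings shorten 1 or both lists, which removes sites but can also leave a peak without its partner. They are, in this order, a fold above 36.5 in both lists, a score above 228 in both lists, that score in 1 list against all peaks of the other, 14367 top peaks from each list, 7183 top peaks from each list, and a listed false discovery rate under 100%.

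Heat-only sites then numbered 1408, 1183, 753, 3161, 1214 and 1220, which is 22.0%, 16.4%, 10.4%, 22.0%, 16.9% and 16.8% of the heat peaks. They lay in 1018, 811, 609, 1957, 824 and 828 genes. Control-only sites numbered 2062, 1130, 556, 2952, 959 and 1033. The ratio of median folds, 0.74 in the lists as deposited, was 0.77, 1.03, 1, 0.77, 1.0003 and 0.996. The difference between heat-only and control-only shares was −7.93, 0.69, 3.37, 1.22, 3.46 and 2.48 percentage points, so that it changed direction under the fold limit alone. That limit keeps more control than heat peaks, and the part of this in the change of direction was not tested.

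Genes with at least 4 heat-only sites numbered 34, 34, 5, 111, 36 and 37, and with at least 4 control-only sites 48, 5, 0, 41, 3 and 4. The 5′ share of outer sites was 65.8%, 69.0%, 56.6%, 67.2%, 69.2% and 68.3% for heat-only sites and 55.7%, 55.4%, 49.1%, 61.4%, 53.2% and 54.4% for control-only sites. The 5′ shares, the genes with 4 sites and the control-only counts were examined under these settings after the data were seen.

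For gene lists only the limit on the score of the heat peaks was tried, at which 14.5% of 4187 genes listed in both had a heat-only site. The shares were 50% for cytoskeletal genes (8 of 16), 50% for the hemidesmosome and desmosome list (7 of 14), 55.6% for matrix genes (5 of 9) and 36.6% for chromatin modifiers (15 of 41). They were 28.6% for heat shock proteins (6 of 21), 21.7% for EGF receptor signalling (5 of 23) and 18.2% for cell cycle and for apoptosis genes (2 of 11 each). Ubiquitin ligases had 15.4% (2 of 13), epithelial markers 14.3% (2 of 14), the unfolded protein list 11.1% (2 of 18) and stress granule genes 10.5% (2 of 19). The lowest were 6.25% for m6A enzymes and readers (1 of 16), 6.11% for zinc finger genes (8 of 131), 3.57% for immediate early genes (1 of 28), and 0% for RPL or RPS symbols (0 of 3) and fibroblast genes (0 of 1). The intervals of the cytoskeletal, hemidesmosome, matrix, chromatin and zinc finger lists exclude the 14.5%, and the others hold it.

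No paired analysis was possible because each condition has 1 immunoprecipitated library. Depth is unknown, so a site under the threshold in control cells and a site without m6A there cannot be told apart.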
